A study of Mus musculus with 24 samples.

Results

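The genes described here make and break down serotonin and supply its cofactor tetrahydrobiopterin: Tph1, Tph2, Ddc, Maoa, Maob, Gch1, Gchfr, Pts, Spr and Qdpr. Every non-control probe whose gene name in the scanner files equals one of these names was taken, which gave 13 probes of 10 genes, of 55681 probes with 34947 names in all. Ddc, Gch1 and Qdpr had a pair of probes each, called A and B here, and the other genes had 1 probe. The set was chosen on measured values of these same arrays, the strain differences of Tph2 in gonadal white fat and Gchfr in brown fat, so the strain differences of both genes are given as a description, with a standard error (SE) and without a p-value. All mice were male, were 6 weeks old and had eaten a diet with 45% fat. They were NZO mice (New Zealand Obese, NZO/HiBomDife), a polygenic model of obesity and type 2 diabetes, or C57BL/6 mice (B6), the lean strain they were set against. RNA came from the white fat of the gonads (gWAT), from brown fat (BAT) or from skeletal muscle. Each tissue of each strain was measured on 4 single-colour arrays per group, 24 in all. The labels do not say whether arrays of 1 group came from separate animals, so the p-values measure the spread between these RNA samples.

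Serotonin is made from tryptophan in a pair of steps. A tryptophan hydroxylase, Tph1 mostly outside the brain and Tph2 mostly in serotonergic neurons, carries out the rate-limiting hydroxylation, and Ddc, aromatic L-amino acid decarboxylase, then removes the carboxyl group. The monoamine oxidases Maoa and Maob break serotonin down. The hydroxylases need tetrahydrobiopterin, which is made from GTP by Gch1, Pts and Spr in turn and regenerated after use by Qdpr. Gchfr binds Gch1 and mediates its feedback inhibition by tetrahydrobiopterin. The same cofactor serves the nitric oxide synthases and the other aromatic amino acid hydroxylases.

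Each value below rests on a probe of 60 bases, and a stretch of 30 bases is shown for the genes on which the results turn, since genes with a pair of probes did not always give the same answer. The stretches run 5′ to 3′ along the transcript. Capitals mark AATAAA, the letters of the usual polyadenylation signal, where the probe holds them.
Tph2: aaccaatatctggggatttgatgcctagaa
Gchfr: acagctaatccaagccAATAAAgggctctc
Ddc probe A: ggctaaatactaAATAAAcaacctatgtgc
Ddc probe B: ccacggctagctcatacccagctatgcttg
Gch1 probe A: cgtacattccagtttcagttggtacacttg
Gch1 probe B: ctgaacgaccctgttgggtcattctctaga
Qdpr probe A: tcagtttttggcatttggggtactttgaaa
Qdpr probe B: tggtaaccacagatgggaagacagagctta
AATAAA stood in 3 of the 13 member probes and in 10.1% of all 55681 probes, and its reverse complement TTTATT stood in 0 member probes and in 3.74% of all probes. This match is a description of the letters, not of a used site.

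In the mm9 build of the file headers the Tph2 probe lies at chr10:114516684-114516743 on the minus strand and the Gchfr probe at chr2:118998049-118998108 on the plus strand. The Ddc probes lie on the minus strand at chr11:11714106-11714165 (A), which starts at base 1956 of its transcript, and at chr11:11776262-11776321 (B), which starts at base 320 of another transcript of the gene. Gch1 probe A (chr14:47775348-47775407) starts at base 926 and probe B (chr14:47773797-47773856) at base 2477 of 1 transcript, both on the minus strand. Qdpr probe A (chr5:45825474-45825533) starts at base 1131 and probe B (chr5:45825799-45825858) at base 806 of 1 transcript, also on the minus strand. The single probes of the other genes lie at chr7:53902553-53902612 (Tph1, minus), chrX:16264785-16264844 (Maoa, plus), chrX:16286427-16286486 (Maob, minus), chr9:50330140-50330199 (Pts, minus) and chr6:85083852-85083911 (Spr, minus). Whether these positions are coding or untranslated was not assigned, because no annotation of this build was used. The probe sequences were not compared with the NZO genome, so the part of strain variants under a probe was not tested.

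Levels are log2 of the processed signal minus the 75th percentile of the same array, so 0 is a probe at that percentile. A probe counted as measured on an array where the scanner software called it well above background. A probe entered the test of a tissue if every array of either strain measured it there. A log2 difference is NZO minus B6, or as named, and passed the test where limma's p adjusted over all probes tested (Benjamini-Hochberg) was under 0.05. The 24 arrays had between 51.92% and 59.32% of probes well above background, and their 75th percentile of signal was 238.2 to 359.8 for gWAT, 133.4 to 177.8 for BAT and 142.6 to 234.2 for muscle. B6 muscle array 011 stood apart from the other B6 muscle arrays and was left out, which left 3 B6 muscle arrays and 23 arrays in all. Its summed mature adipocyte markers were at 849.7 (linear signal over the array's 75th percentile) against 193.6 to 244.3 on the others, its macrophage markers at 80.36 against 28.37 to 29.88, and its muscle fibre markers at 7895 against 10930 to 12480. The labelled tissues otherwise carried their markers. Muscle fibre genes were at 9674 to 10750 in NZO muscle and 10930 to 12480 in B6 muscle, brown adipocyte genes at 2933 to 3143 in NZO BAT and 3047 to 3768 in B6 BAT, and mature adipocyte genes at 1302 to 2037 in NZO gWAT and 1753 to 2268 in B6 gWAT.

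Tph2, the neuronal tryptophan hydroxylase, was high in NZO gWAT. Its log2 levels there were 3.29, 3.05, 3.19 and 2.52, against -3.37, -3.42, -4.12 and -3.57 in B6 gWAT. The probe was measured on all 8 gWAT arrays and the strains lay far apart. The means were 3.01 ± 0.34 in NZO and -3.62 ± 0.34 in B6 (SD, n = 4 each), a difference of 6.63 (SE 0.22), or 99.2-fold, which ranked 11 from the top among 30615 probes tested in gWAT. In BAT the probe was not well above background on any of 8 arrays. In muscle it was measured on 2 of 4 NZO arrays, at -4.14 and -3.33, and on 0 of the 3 B6 arrays used, so no difference is given in either tissue. The left-out B6 muscle array 011 had Tph2 at 1.30, whereas the 3 others lay between -6.57 and -6.23, not well above background. In the order of the group means NZO gWAT stood alone at the top, and the ranges of B6 gWAT and NZO muscle, and of each lower neighbour, overlapped. NZO BAT lay at least 175.1-fold below NZO gWAT, given without a p-value because the gene was chosen on the same gWAT arrays. The fitted log2 difference was -9.16, and -4.73 after normexp background correction, where this bound does not hold. In bulk tissue a larger share of cells that make a transcript and more of it per cell cannot be told apart.

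**Figure D1:**
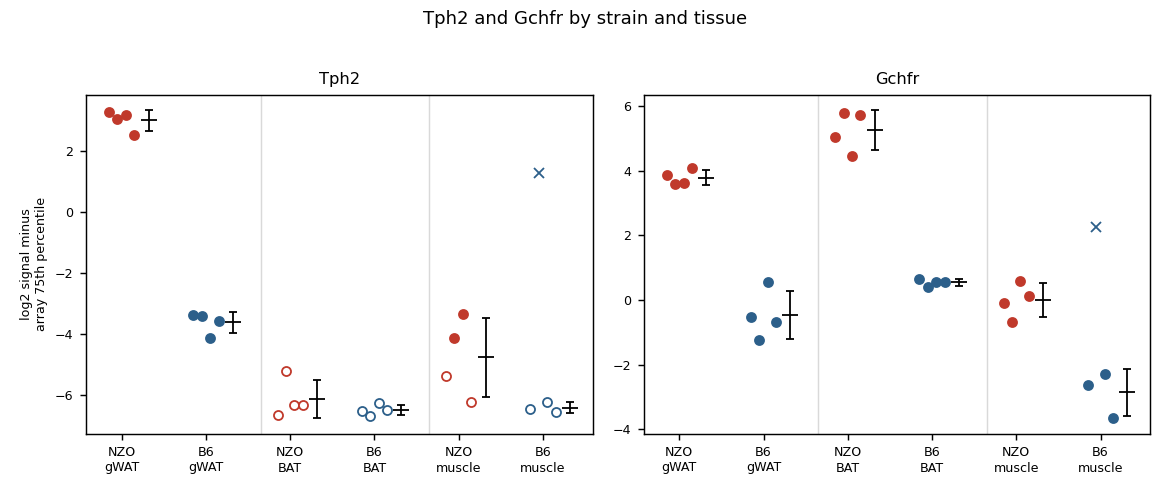
Levels of Tph2 and Gchfr on each array (log2 signal minus the array's 75th percentile) by strain and tissue. Filled points were well above background, open points were not, crosses are the left-out B6 muscle array 011, and bars give the mean and SD without it. Tph2 in NZO gWAT lies between 2.52 and 3.29 with all other used arrays below -3.3, and Gchfr is higher in NZO than in B6 in all 3 tissues.

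Genes of other cell types differed with Tph2 in gWAT. All 7 macrophage markers were higher in NZO gWAT (limma), with a summed level of 178.3 to 214 in NZO gWAT against 62.66 to 80.36 in B6 gWAT, and none was at background. Of the 6 brown adipocyte markers 4 were higher, with sums of 55.49 to 89.36 in NZO gWAT and 6.09 to 11.67 in B6 gWAT. Over all probes tested in gWAT, 14.8% were higher and 17.4% lower. Schwann cell markers summed to 2.764 to 5.178 in NZO gWAT and 1.205 to 1.452 in B6 gWAT. Of 3 tested Schwann cell markers 1 was higher in NZO gWAT and 2 were lower, with a median difference of -1.17. S100b was the higher one (2.48, adjusted p = 0.000136, limma), and Sox10 was among the lower ones (-1.56, adjusted p = 0.00266, limma). The part of these markers in the Tph2 difference was not tested. Markers of serotonergic neurons did not move with it: 0 of 4 tested genes passed in gWAT, the sums were 0.315 to 0.557 in NZO and 0.352 to 0.444 in B6, and Htr1a was not well above background on any gWAT array. The mast cell sums overlapped too, at 4.09 to 5.81 in NZO gWAT and 3.84 to 5.83 in B6 gWAT, with 1 of 6 tested markers higher and 1 lower.

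Among 15132 genes, the 5 whose 6 group means were nearest to those of Tph2, by the root mean square difference after centring each gene, were Slc5a7 (0.45 on the log2 scale), Atp6v0d2 (0.85), Trem2 (0.96), Folh1 (1.02) and Rgs1 (1.02). Slc5a7 is the high-affinity choline transporter, Atp6v0d2 a subunit of the vacuolar proton pump, Trem2 a receptor of macrophages and microglia, Folh1 a glutamate carboxypeptidase and Rgs1 a regulator of G-protein signalling. Slc5a7 averaged 3.42 ± 0.51 in NZO gWAT and -3.89 ± 1.41 in B6 gWAT (SD, n = 4 each). Trem2 averaged 5.14 ± 0.20 in NZO gWAT and 0.73 ± 0.22 in B6 gWAT (SD, n = 4 each). On B6 muscle array 011 these 5 genes were at 1.89, -0.04, 3.59, 0.12 and -0.84 in the order named, each above the other 3 B6 muscle arrays. Trem2 is also a macrophage marker above, and 4 of the 6 groups had Tph2 at or near background, so this likeness rests mainly on the gWAT groups.

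Tph1, the hydroxylase of peripheral tissues, was a muscle gene in these arrays. In muscle its levels were -0.74, -1.13, -0.66 and -0.83 in NZO, against -0.43, 0.33 and 0.23 in B6, and the strains did not overlap. The means were -0.84 ± 0.21 in NZO (SD, n = 4) and 0.04 ± 0.42 in B6 (SD, n = 3), so Tph1 fell by 0.88 (SE 0.21; limma, adjusted p = 0.0431). That call ended without any 1 of the 4 NZO muscle arrays or without B6 015 or 009 (adjusted p 0.069 to 0.152). Outside muscle Tph1 was well above background on 1 array, NZO gWAT 003, at -4.67. B6 muscle lay at least 34.15-fold above B6 gWAT and at least 20.48-fold above B6 BAT, and NZO muscle at least 12.1-fold above NZO BAT. These bounds carry no p-value, since the probe entered the fit across tissues through muscle alone. The fitted log2 differences behind them were 6.60, 5.71 and 5.30. After normexp background correction they were 2.50, 1.77 and 1.19, where the bounds do not hold. Mast cells of mice also use Tph1: the mast cell sum was 7.1 to 11.15 in NZO muscle against 3.825 to 5.885 in B6 muscle. Of 6 tested mast cell markers 3 were higher in NZO muscle, where 4.58% of all probes were. So these markers moved the other way from Tph1, and their part was not tested.

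Ddc, which turns 5-hydroxytryptophan into serotonin and L-DOPA into dopamine, was higher in NZO muscle by probe A. Its levels were 0.64, 0.36, 0.62 and 0.67 in NZO muscle, against -1.01, -1.005 and -1.37 in B6 muscle. The means of 0.57 ± 0.14 in NZO (SD, n = 4) and -1.13 ± 0.21 in B6 (SD, n = 3) differed by 1.70 (SE 0.14), or 3.25-fold (limma, adjusted p = 0.000452), and the left-out B6 array 011, at -1.24, lay with the others. In gWAT probe A read -1.98, -1.54, -0.88 and -2.29 in NZO, against -2.81, -3.47, 0.15 and -2.71 in B6. B6 gWAT 015 lay above every other gWAT array. The strains differed by 0.54 (SE 0.74), which missed the threshold (adjusted p = 0.603), and by 1.32 without that array (adjusted p = 0.0333). Probe B was measured on B6 gWAT 015 too, at -3.06, and on no other B6 array. Epididymis markers summed to 2.118 on B6 gWAT 015, against 0.029 to 0.181 on the other B6 gWAT arrays and 0.028 to 0.175 on NZO gWAT arrays, and their part in the Ddc value was not tested. In BAT probe A was well above background on 1 NZO array and 0 B6 arrays. B6 muscle lay at least 8.871-fold above B6 BAT and B6 BAT at least 4.193-fold below B6 gWAT, without a p-value because the probe entered through gWAT and muscle. The fitted difference behind the last value was -2.23, and it was -1.44 without B6 gWAT 015 and -0.31 after normexp background correction. For B6 muscle minus B6 BAT it was 3.31, and 0.95 after normexp, so neither bound holds after that correction. Probe B was well above background on 2 NZO gWAT arrays, 1 B6 gWAT array and 1 NZO muscle array, and was tested in no tissue.

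Maoa and Maob, the oxidases that start the breakdown of serotonin and other amines, moved in opposite directions in gWAT. Maoa was at 0.75, -0.16, 0.07 and 0.42 in NZO gWAT, against -0.45, -0.41, -0.30 and -0.34 in B6 gWAT, and was higher in NZO by 0.64 (SE 0.19; limma, adjusted p = 0.035). Maob was at 2.70, 1.82, 2.14 and 2.77 in NZO gWAT, against 3.14, 3.13, 3.10 and 3.10 in B6 gWAT, and fell by 0.76 (SE 0.21; limma, adjusted p = 0.0266). Neither pair of groups overlapped. The 4 NZO values were spread wider than the B6 values in both genes. The Maoa call ended without NZO 009 or 007 or any 1 B6 array (adjusted p 0.061 to 0.0871), and the Maob call without NZO 003 or any 1 B6 array (adjusted p 0.0533 to 0.0656). In BAT the differences were -0.08 for Maoa (adjusted p = 0.783) and -0.24 for Maob (adjusted p = 0.131), and in muscle -0.23 (adjusted p = 0.256) and 0.46 (adjusted p = 0.432). The strain effect on Maoa was smaller in BAT than in gWAT by 0.72 (adjusted p = 0.0344; 7 single arrays and 4 other settings ended this call, as given below) and smaller in muscle than in gWAT by 0.87 (adjusted p = 0.0163). For Maob the effect in muscle minus that in gWAT was 1.23 (SE 0.34; adjusted p = 0.0184), with no call under median centring (0.92, adjusted p = 0.13) or with slide as a block (0.93, adjusted p = 0.113). Between tissues, Maob averaged 3.67 ± 0.08 in NZO BAT, 2.36 ± 0.46 in NZO gWAT and 1.76 ± 0.22 in NZO muscle (SD, n = 4 each), and BAT was above gWAT by 1.31 (adjusted p = 7.92e-05). Maoa ran the other way between the fats: NZO BAT lay below NZO gWAT by a log2 difference of -2.11 (adjusted p = 1.26e-09), and B6 BAT below B6 gWAT by -1.38 (adjusted p = 5.33e-07, limma).

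**Figure D2:**
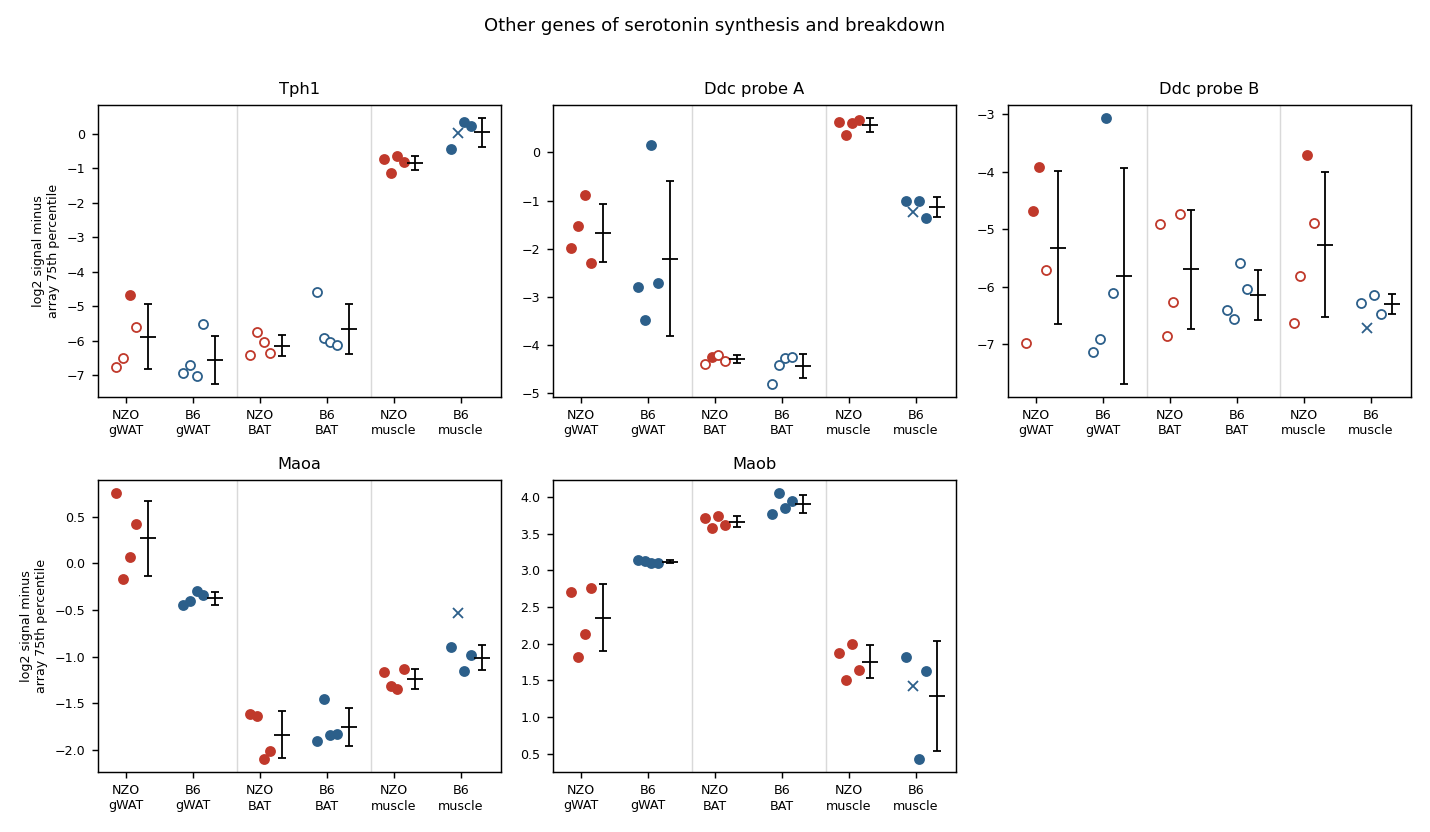
Levels of Tph1, Ddc (probes A and B), Maoa and Maob on each array, with symbols as in the plot of Tph2 and Gchfr, on the scale of log2 signal minus the array's 75th percentile. Tph1 is above background mainly in muscle, Ddc probe A separates the strains in muscle and has 1 high B6 gWAT array at 0.15, and the oxidases differ by strain in gWAT.

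Gch1, GTP cyclohydrolase, the first and rate-limiting enzyme of tetrahydrobiopterin synthesis, was higher in NZO gWAT by probe A. The levels were 1.04, 1.30, 1.21 and 0.80 in NZO gWAT, against 0.07, -0.06, 0.11 and -0.03 in B6 gWAT, and the groups did not overlap. The means of 1.09 ± 0.22 and 0.02 ± 0.08 (NZO and B6, SD, n = 4 each) differed by 1.07 (SE 0.13), or 2.1-fold (limma, adjusted p = 0.000589). Probe B, farther along the transcript, gave 0.38 (SE 0.24; adjusted p = 0.256), with -2.56 ± 0.47 in NZO and -2.94 ± 0.22 in B6 (SD, n = 4 each). It passed under median centring (0.64, adjusted p = 0.0437) and under quantile normalization. In BAT the differences were 0.31 for probe A (adjusted p = 0.234) and 0.33 for probe B (adjusted p = 0.173; 0.455 without B6 BAT 010, adjusted p = 0.0334), and in muscle 0.00 (adjusted p = 0.993) and -0.20 (adjusted p = 0.542). By probe A the strain effect was smaller in muscle than in gWAT by 1.07 (SE 0.23; adjusted p = 0.00381) and smaller in BAT than in gWAT by 0.76 (adjusted p = 0.0249), the last without a call when B6 BAT 010 was left out (-0.63, adjusted p = 0.0533). Macrophage markers moved with Gch1 in gWAT as given above, and their part was not tested.

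Gchfr, the feedback regulator that binds Gch1, was higher in NZO in every tissue. In BAT it was at 5.05, 5.79, 4.47 and 5.71 in NZO, against 0.66, 0.41, 0.57 and 0.56 in B6. In gWAT it was at 3.85, 3.60, 3.61 and 4.09 in NZO, against -0.54, -1.23, 0.55 and -0.68 in B6. In muscle it was at -0.08, -0.68, 0.59 and 0.12 in NZO, against -2.62, -2.29 and -3.67 in B6. It was measured on all of these arrays, and the strains did not overlap in any of the 3 tissues. The differences were 4.71 (SE 0.28; 26.1-fold) in BAT, 4.26 (SE 0.34; 19.2-fold) in gWAT and 2.84 (SE 0.40; 7.18-fold) in muscle, and they ranked 23, 68 and 92 from the top among 29056, 30615 and 28976 probes tested. The left-out B6 muscle array 011 had Gchfr at 2.26, above all 4 NZO muscle arrays. With it, the muscle difference was 1.56 (SE 1.13).

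The order of the 6 Gchfr means was NZO BAT (5.25 ± 0.62), NZO gWAT (3.79 ± 0.23), B6 BAT (0.55 ± 0.10), NZO muscle (-0.01 ± 0.53), B6 gWAT (-0.47 ± 0.75) and B6 muscle (-2.86 ± 0.72; SD, n = 4 each and n = 3 in B6 muscle). The range of NZO muscle overlapped those of its neighbours B6 BAT and B6 gWAT, and the other neighbours in this order did not overlap. Gchfr was chosen on the BAT arrays, so its differences from BAT carry no p-value. Within NZO, BAT was above gWAT by 1.47 and muscle below gWAT by a log2 difference of -3.80 (adjusted p = 1.55e-08, limma). Within B6 the same differences were 1.02 and -2.38 (adjusted p = 2.37e-05). With the left-out B6 muscle array 011 that last difference was -1.10 (adjusted p = 0.221). Brown adipocyte markers were higher in NZO gWAT as given above. In BAT all 8 muscle fibre markers were lower in NZO (limma), with sums of 1.5 to 8.125 in NZO BAT against 221.3 to 911.1 in B6 BAT. There 1 of 7 macrophage markers was higher, with sums of 18.71 to 23.44 in NZO BAT and 16.93 to 18.38 in B6 BAT. Over all probes tested in BAT, 7.37% were higher and 8.38% lower. Gchfr was lower in B6 muscle than in B6 BAT by a log2 difference of -3.41, or -2.13 with array 011. The part of these markers in the Gchfr differences was not tested.

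The 5 genes nearest to Gchfr over the 6 group means were Atp6v1c2 (0.77 on the log2 scale), Gdf5 (1.12), Klra23 (1.24), Lamb3 (1.31) and Olfr620 (1.36). Atp6v1c2 is a subunit of the vacuolar proton pump, Gdf5 a growth factor of the TGF-beta family and Lamb3 a laminin chain. Atp6v1c2 averaged 0.88 ± 0.41 in NZO BAT and -3.37 ± 0.81 in B6 BAT (SD, n = 4 each), and Gdf5 averaged 4.34 ± 0.61 and 2.005 ± 0.41 (NZO BAT and B6 BAT, SD, n = 4 each). None of these 5 was as near to Gchfr as Slc5a7 was to Tph2. These distances are not alike, since Tph2 and Slc5a7 were at or near background outside gWAT, whereas Gchfr was measured on every array.

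**Figure D3:**
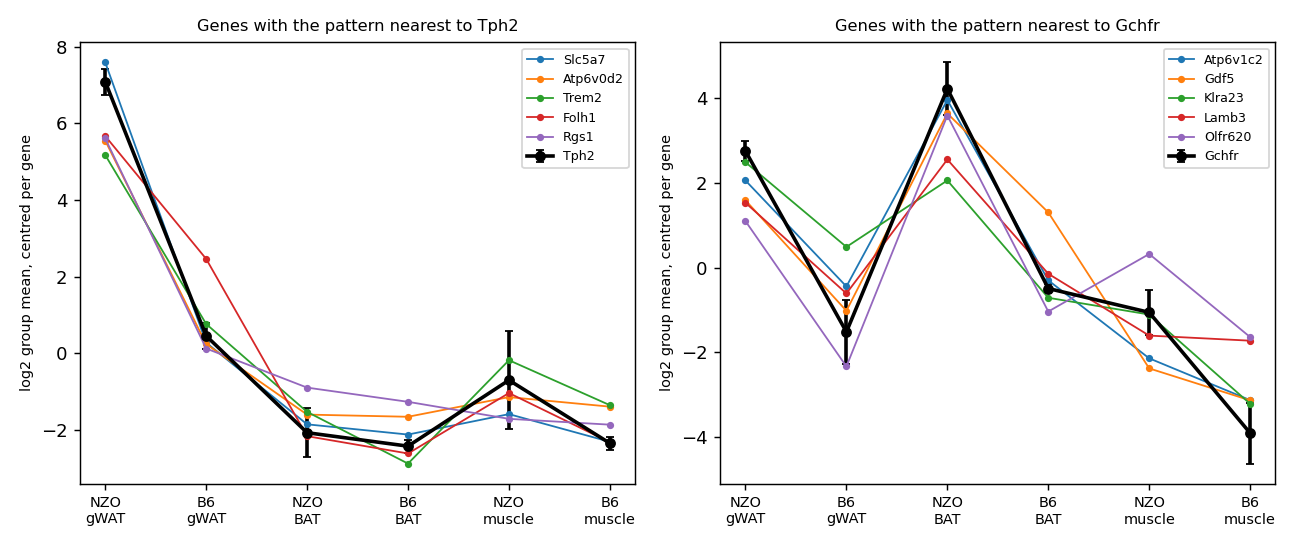
Group means of Tph2 and of Gchfr (black, with SD) and of the 5 genes nearest to each, on the log2 scale after centring each gene on its own mean, over the 6 groups. The Tph2 panel has 1 high group, NZO gWAT, and the Gchfr panel has high values in NZO BAT and NZO gWAT.

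Pts, the second enzyme of tetrahydrobiopterin synthesis, was lower in NZO gWAT. Its levels were 1.75, 0.92, 1.101 and 1.67 in NZO gWAT, against 1.999, 1.93, 2.11 and 2.001 in B6 gWAT, without overlap, and it fell by 0.65 (SE 0.20; limma, adjusted p = 0.0367). The call ended without NZO 012 or 003 or any 1 B6 array (adjusted p 0.0641 to 0.0825). In BAT the difference was -0.30 (adjusted p = 0.0836), and it passed without B6 015 (-0.37, adjusted p = 0.0385). In muscle NZO 007 read -4.98, not well above background, and the other 6 arrays used lay between -0.29 and 0.16. In muscle the strains differed by -1.36 (SE 1.21), short of the threshold (adjusted p = 0.529), and by -0.13 without NZO 007 (adjusted p = 0.633). Array NZO muscle 007 also had the most spots set aside as outliers, 286.

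Spr, sepiapterin reductase, the last step of the synthesis, did not pass in any tissue. Its differences were 0.05 in gWAT (adjusted p = 0.792), -0.13 in BAT (adjusted p = 0.396) and -0.39 in muscle (SE 0.13; adjusted p = 0.112). It was lower in gWAT than elsewhere: B6 muscle was above B6 gWAT by 1.23 (adjusted p = 3.05e-08) and NZO BAT above NZO gWAT by 0.79 (adjusted p = 6.25e-06, limma). The array also has a probe named for an Spr pseudogene, and whether the signal is shared with a near copy was not tested.

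Qdpr, dihydropteridine reductase, which regenerates the used cofactor, was lower in NZO in all 3 tissues by probe A. In gWAT the levels were 3.52, 3.01, 3.12 and 3.37 in NZO, against 4.05, 3.98, 3.95 and 4.19 in B6. In BAT they were 3.99, 3.71, 3.86 and 3.75 in NZO, against 4.71, 4.91, 4.82 and 4.82 in B6. In muscle they were 3.76, 3.58, 3.47 and 3.75 in NZO, against 4.29, 4.57 and 4.52 in B6. The strains did not overlap in any tissue. Qdpr probe A fell by 0.79 in gWAT (SE 0.14; adjusted p = 0.00344), by 0.99 in BAT (SE 0.10; adjusted p = 0.000278) and by 0.82 in muscle (SE 0.13; adjusted p = 0.00822, limma). Probe B, 325 bases nearer to the transcript's start, gave -0.13 (adjusted p = 0.584), -0.20 (adjusted p = 0.499) and -0.26 (adjusted p = 0.407) in the same order of tissues. Probe B thus missed the threshold in each tissue, and in BAT it gave -0.38 without B6 BAT 010 (adjusted p = 0.0414). The call on Qdpr rests on probe A. The strain effect on probe A did not differ detectably between tissues (adjusted p = 0.446 for BAT minus gWAT, 0.942 for muscle minus gWAT and 0.648 for muscle minus BAT).

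**Figure D4:**
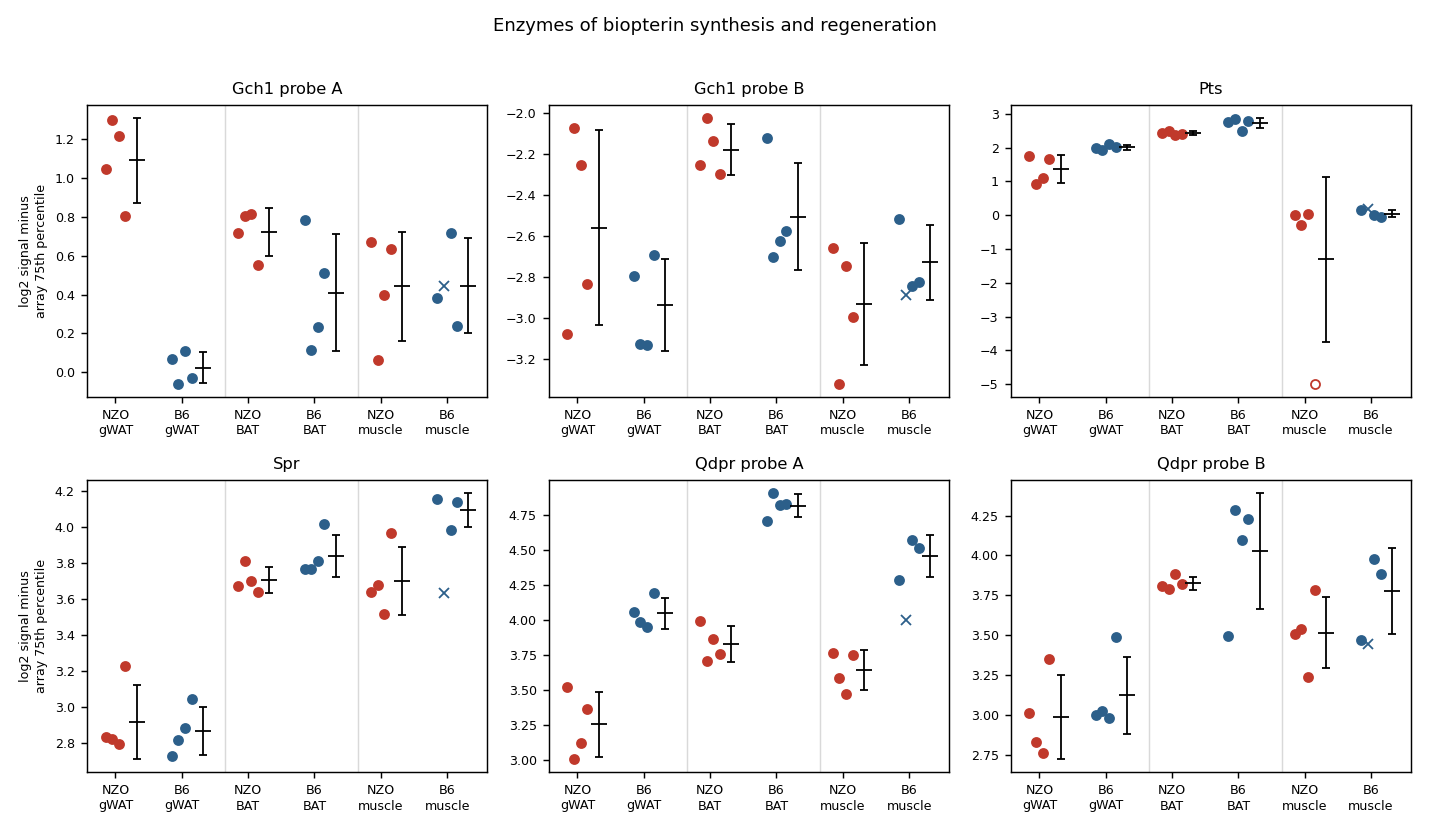
Levels of Gch1 (probes A and B), Pts, Spr and Qdpr (probes A and B) on each array, with symbols as in the plot of Tph2 and Gchfr, on the scale of log2 signal minus the array's 75th percentile. Qdpr probe A is lower in NZO in all 3 tissues while probe B overlaps, and Pts has 1 array at -4.98 in NZO muscle.

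Without Tph2 and Gchfr, 9 probes of 7 member genes were tested for strain in gWAT and 5 passed, 2 higher (Maoa and Gch1 probe A) and 3 lower (Maob, Pts and Qdpr probe A), where 32.2% of all probes passed. In BAT 1 of 8 probes passed (Qdpr probe A, lower), against 15.7% of all probes. In muscle 3 of 10 probes passed, Ddc probe A higher and Tph1 and Qdpr probe A lower, against 10.8% of all probes. With so few probes these counts are not set apart from the background. For the difference of the strain effect, 2 of 10 probes passed for BAT minus gWAT (17.8% of all probes), 3 of 10 for muscle minus gWAT (18.9%) and 0 of 10 for muscle minus BAT (5%; limma, 1671 probes in all, and 5949 at an unadjusted p under 0.05).

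**Figure D5:**
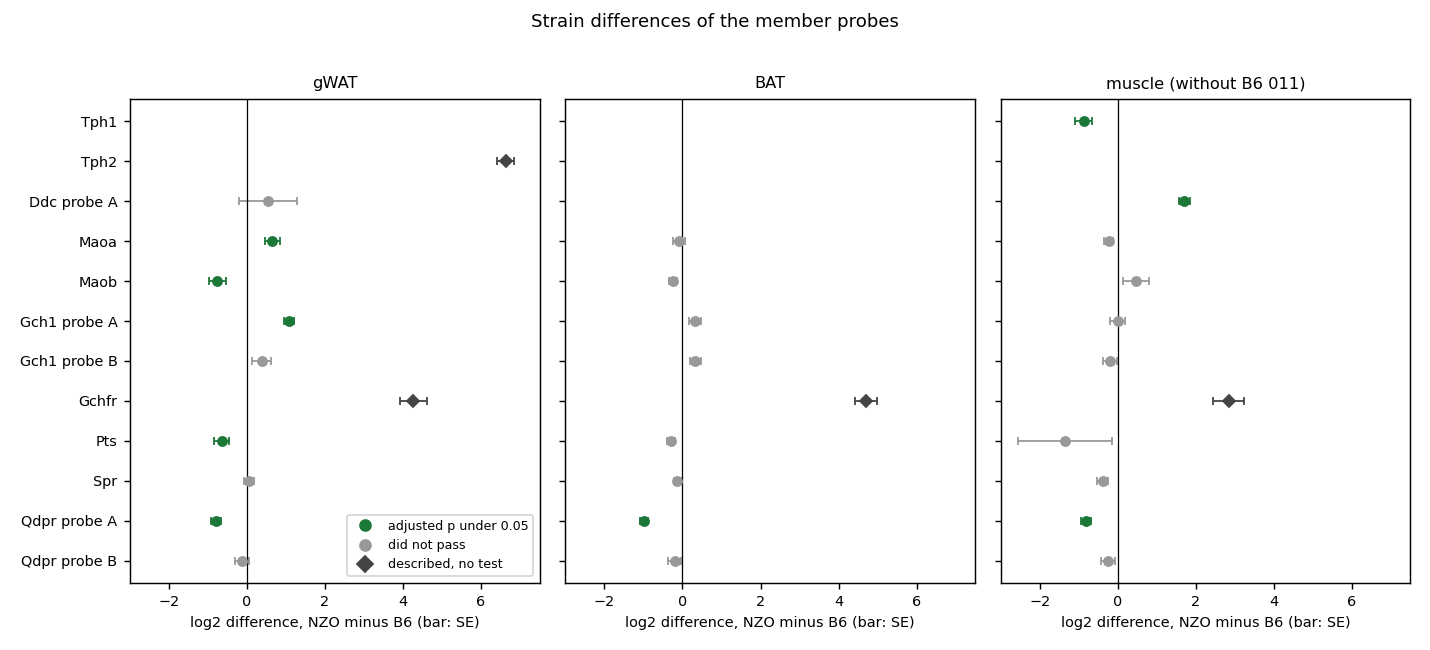
Log2 differences NZO minus B6 of each member probe tested in gWAT, BAT and muscle, with SE bars. Green points passed the test, grey points did not, and diamonds (Tph2 and Gchfr) carry no test. Gchfr lies at 4.26, 4.71 and 2.84, Tph2 appears in gWAT alone at 6.63, and Qdpr probe A is below 0 in each panel.

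All 10 genes were tested between tissues, with 12 probes. Of these, 9 passed in NZO for BAT minus gWAT, against 63.1% of all probes, 11 for muscle minus gWAT (65.7%) and 8 for muscle minus BAT (60.2%). In B6 the counts were 9 (55.6%), 10 (66.4%) and 7 (57.7%). Tph1 entered this test through muscle, Tph2 through NZO gWAT and B6 gWAT, and Ddc probe A through gWAT and muscle. The filter thus favoured their differences from groups where they were dim. Tph2 and Gchfr were also chosen on gWAT and BAT arrays that this test used. All of these are in the counts, so the counts say nothing more about the members. Over all probes the median difference BAT minus gWAT was 0.33 in NZO and 0.18 in B6, and smaller tissue differences of the members are to be read against it. Qdpr was above gWAT in NZO BAT by 0.58 (probe A, adjusted p = 0.000214) and 0.83 (probe B, adjusted p = 0.000452), and in B6 BAT by 0.77 and 0.90 (adjusted p = 9.93e-06 and 0.000245), so its probes had the same direction between tissues. Under median centring the NZO differences of Qdpr were 0.15 and 0.41 (adjusted p = 0.523 and 0.109), and that of Spr in NZO BAT minus gWAT (0.36, adjusted p = 0.0634) did not pass either.

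Receptors, transporters and neighbouring pathways were read from lists that name 14 serotonin receptors, 12 genes of serotonin transport and fate, 6 enzymes that use tetrahydrobiopterin, 6 of its recycling and salvage, and 11 of the kynurenine pathway, the other main use of tryptophan. Of the 14 receptors, 9 were not well above background on any gWAT array. In gWAT 2 were tested, and 1 of them did not pass. The filter had favoured the other, Htr2b, so no count is set against the 32.2% of all probes that passed. Htr2b, a receptor coupled to Gq, averaged -1.40 ± 0.31 in NZO gWAT and -4.60 ± 0.86 in B6 gWAT (SD, n = 4 each). The difference was 3.21, and 1.275 to 3.582 under the other settings. With 3 of 4 B6 arrays measured, Htr2b entered the test through NZO alone, where it was higher, so no p-value is given. In muscle 1 of 2 tested receptors passed, against 10.8% of all probes. This was Htr7, higher by 0.95 (limma, adjusted p = 0.0124, and 0.0505 without B6 muscle 010).

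Of the transport and fate genes, 11 were tested in gWAT, and 2 were higher and 3 lower. Of all probes 14.8% were higher and 17.4% lower (32.2% in all), and the median difference was 0.04 against -0.04 over all probes. The filter favoured Slc18a1, which is among the higher genes, so these counts say nothing more about the list. Slc18a1, a vesicular monoamine transporter, was measured on 4 NZO and 0 B6 gWAT arrays and was at least 5.82-fold higher in NZO, through which it entered the test. Its log2 difference was 0.782 to 3.279 under the other settings, so this bound does not hold under each of them. Slc22a2, an organic cation transporter, was higher in NZO gWAT by 1.60 (adjusted p = 0.00105) and in NZO BAT by 0.58 (adjusted p = 0.00644; 0.106 in 1 fit over all groups and 0.529 with slide as a block). Inmt, an N-methyltransferase of indoleamines, averaged -2.02 ± 0.74 in NZO gWAT and 2.69 ± 0.74 in B6 gWAT (SD, n = 4 each), a difference of -4.71 (26.1-fold lower; adjusted p = 0.000184). Aldh2, an aldehyde dehydrogenase that takes up the product of the oxidases, fell by 1.13 in gWAT (adjusted p = 0.000249), and Sult1a1, a sulfotransferase, fell by 1.06 (adjusted p = 0.00219). In BAT 2 of 8 tested genes were higher, Slc22a2 and Slc22a3 (1.08, adjusted p = 0.0025, limma), where 7.37% of all probes were. Aldh2 was lower (-0.45, adjusted p = 0.042, lost without any 1 of 7 arrays, all but B6 015, at 0.0707 to 0.111), where 8.38% of all probes were. None of 8 passed in muscle, where 10.8% of all probes did.

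In the recycling and salvage list, Pcbd1, which dehydrates the used cofactor ahead of Qdpr, averaged 3.47 ± 0.46 in NZO gWAT and 1.84 ± 0.55 in B6 gWAT (SD, n = 4 each), a difference of 1.63 (adjusted p = 0.00583, limma). In gWAT 6 genes of this list were tested and 2 were higher, where 14.8% of all probes were. None of the 6 passed in BAT or in muscle, where 15.7% and 10.8% of all probes did. With so few genes these counts are not set apart from the background. Among the enzymes that use the cofactor, Agmo, alkylglycerol monooxygenase, was lower in NZO gWAT (-0.60, adjusted p = 0.0451) and Nos2, inducible nitric oxide synthase, higher in NZO muscle (0.60, adjusted p = 0.0246). Each of these 2 calls ended in 6 sets that leave out 1 array, for Agmo all but those without NZO 009 or 007 (0.072 to 0.113) and for Nos2 all but that without NZO 011 (0.0526 to 0.1).

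In the kynurenine pathway 6 of 11 genes were tested in gWAT and 3 were higher, where 14.8% of all probes were, with a median difference of 0.61 against -0.04 over all probes. With 6 genes tested this count is not set apart from the background. Kmo, kynurenine 3-monooxygenase, was higher by 1.49 (adjusted p = 0.000104), Afmid, kynurenine formamidase, by 0.96 (adjusted p = 0.000838) and Qprt, which makes nicotinic acid mononucleotide, by 0.95 (adjusted p = 0.0262; no call without NZO 012 or 003 or without B6 011, 015 or 009, at 0.0539 to 0.0714). In BAT 2 of 5 tested genes were higher, where 7.37% of all probes were. These were Qprt, by 1.30 (adjusted p = 0.0125, limma), and Ccbl1, a kynurenine aminotransferase, by 0.54 (adjusted p = 0.00808). None of 5 passed in muscle, where 10.8% of all probes did. Macrophage markers were higher in the same NZO gWAT arrays, and their part in these calls was not tested.

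The arrays lay on 6 slides, and some slides held both strains of a tissue. With slide as a fixed block the strain difference of Tph2 in gWAT was 6.70 (SE 0.46), and within slides 4 and 6 it was 6.09 and 7.36. For Gchfr the blocked values were 4.01 in gWAT, 4.36 in BAT and 2.80 in muscle, and within slides it was 4.76 and 3.18 in gWAT (slides 4 and 6), 5.14 in BAT (slide 3) and 3.78 in muscle (slide 4). Gch1 probe A in gWAT was 1.04 with the block (adjusted p = 8.7e-05) and 0.83 and 1.02 within slides. Qdpr probe A was -0.81, -0.87 and -0.83 with the block in gWAT, BAT and muscle, and -0.83 and -0.63 within the gWAT slides, -1.07 in BAT and -0.77 in muscle. Ddc probe A in muscle was 1.63 with the block (adjusted p = 0.0319) and 2.04 within slide 4, whereas in gWAT it was -0.36 with the block, 0.42 within slide 4 and -1.58 within slide 6, which holds B6 015. Maoa in gWAT was 0.76 and 0.71 within slides, Maob -0.34 and -0.68, and Pts -0.33 and -0.68. With the block, Maob (adjusted p = 0.0571) and Pts (0.494) in gWAT and Tph1 in muscle (0.328; -1.06 within slide 4) no longer passed. A slide held 1 or 2 arrays of a strain and tissue, so these within-slide values carry no error.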

How the data were processed

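RNA of 24 samples was hybridised to single-colour Agilent arrays. Per the file headers, the deposited scanner files give intensity values, background flags and mm9 probe positions from Feature Extraction 11.0.1.1, while the submitters' processing notes name 9.1. The processed signal is background-subtracted intensity, per the file headers. The deposited table of the whole series holds intensity too: all 37877 values of each array equal the mean of the median signals per transcript identifier within 0.0001.

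Control and outlier spots were left out, spots of a probe averaged, and levels set as log2 signal minus the array's 75th percentile. A group counted as bright or dim by the scanner's flag for well above background. Where a probe was dim on all arrays of a group, "at least" folds divide the bright group's mean over all its arrays by a floor for the dim group. That floor averages, over arrays, the dimmest signal still called well above background, or the probe's own where that is higher. Such bounds are bounds under the main processing, not under other background corrections. No probe of the members was saturated.

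Strain differences were fitted per tissue, and tissue and interaction contrasts over all groups (23 arrays), with limma 3.58.1 in R 4.3.3 (data.table package, version 1.17.8), adjusted by Benjamini-Hochberg over all probes tested (threshold 0.05). Figures used Python 3.11.15, pandas 2.3.3 and matplotlib 3.10.9. The fit was tested on simulated data. List genes stand for their probe with the highest mean; gene names came from accessions for 27656 probes through a list from RefSeq and from the files for the other 28025. Named genes were all members, up to 6 passing genes per list and tissue, and 5 nearest genes each for Tph2 and Gchfr; some list genes are not reported here. Members, lists and the left-out array were chosen with earlier results of these data known. Alternatives were other background corrections and scalings, no filter, 1 probe per gene, slide and replicate blocks, 1 fit over all groups, the deposited table, array B6 011 kept, and each array left out.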

Additional observations from a re-analysis of the deposited data

Results flagged for a closer look

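Among 65 probe and group combinations of 4 arrays, Dixon's test marked 6 in which 1 array lay apart, and chance marks about 1 in 20. Tph1 on B6 BAT 010 was at -4.59, the highest of its group and not well above background; that array also had the highest muscle fibre sum in BAT, 911.1. Ddc probe A on NZO muscle 011 was at 0.36, with the next array at 0.62. Maoa on B6 BAT 011 was at -1.46 and Pts on NZO muscle 007 at -4.98. Spr on NZO gWAT 007 was at 3.23 and Qdpr probe B on B6 gWAT 009 at 3.49, both the highest of their group.

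The strain difference itself differed between tissues in 5 cases (limma, all groups). For Maoa the effect in BAT minus that in gWAT was -0.72 (adjusted p = 0.0344), and in muscle minus that in gWAT -0.87 (adjusted p = 0.0163). The first of these did not pass without NZO gWAT 009 or 007, B6 gWAT 010 or 011, NZO BAT 003 or 007, or B6 BAT 011 (adjusted p 0.0595 to 0.0784), nor with median centring (-0.93, adjusted p = 0.0626), quantile normalization (0.0526), no filter (0.0652) or array B6 muscle 011 kept (0.0527). For Gch1 probe A the differences were -0.76 (BAT minus gWAT, adjusted p = 0.0249) and -1.07 (muscle minus gWAT, adjusted p = 0.00381). For Maob it was 1.23 for muscle minus gWAT (adjusted p = 0.0184).

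The muscle array B6 011, used in no comparison, had Tph2 at 1.30, well above background, where the other 3 B6 muscle arrays were not.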

How the results depend on the processing

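Of 4041 recomputed values, 3818 kept their direction and their side of the threshold or, for strain values of Tph2 and Gchfr, stayed within 1 SD. Of the others 168 lost a call, 38 gained one, 11 moved and 6 reversed. Sign changes of values without a call are counted among the 3818. Tph2 in gWAT kept its direction under every setting run (4.95 after normexp background correction, 5.53 in the deposited series table, up to 6.89), as did Gchfr in gWAT (3.905 to 4.604), BAT (4.36 to 4.97) and muscle (1.53 after normexp to 3.13). Gch1 probe A in gWAT and Qdpr probe A and Ddc probe A in muscle passed under every setting run. For Gch1 the series table averages both probes, so its value (0.88, adjusted p = 0.000941, limma) is not that of probe A alone. Qdpr probe A did not pass in gWAT under median centring (-0.53, adjusted p = 0.0998, limma). Nor did it in BAT with the fixed replicate block (adjusted p = 0.112, limma), whose limit is given below. The series table averages the Qdpr probes, giving -0.53 in gWAT (adjusted p = 0.0146, limma) and -0.59 in BAT (adjusted p = 0.00689). In muscle this average gave -0.51 and did not pass (adjusted p = 0.0632, limma).

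The probes passing for strain in muscle numbered 3117, and 1918 with median centring, 1865 without the filter, 1663 with array B6 011 and 1452 to 2870 leaving out 1 array (fewest without B6 010). They numbered 6921 to 9927 leaving out 1 array in gWAT and 3138 to 4567 in BAT. For the strain effect in muscle minus BAT, 1671 became 790 with median centring, 491 with slide as a block and 1082 to 1850 leaving out 1 array. Without the filter 28125 probes passed for B6 BAT minus gWAT, against 18554.

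After normexp the sign turned for Tph2 in muscle minus BAT effect (-0.006) and in B6 BAT minus gWAT (0.186) and muscle minus gWAT (0.225), and for Tph1 in NZO BAT minus gWAT (0.535), all near background. Qdpr probe A in NZO muscle minus gWAT was -0.043 with median centring, and the Tph2 effect in muscle minus BAT was -0.634 with array B6 011. Median centring moved the median gWAT strain difference from -0.04 to 0.22 and the split of calls from 4532 higher and 5330 lower to 5808 and 2793; for the effect in BAT minus gWAT it gave 1276 and 2895 (against 3061 and 2898), and in muscle minus gWAT 1126 and 4438 (against 2965 and 3339). It ended the gWAT calls of Maob (-0.51, adjusted p = 0.199) and Pts (-0.39, adjusted p = 0.3) and the muscle call of Tph1 (-0.93, adjusted p = 0.0675), and those of Agmo, Aldh2 in BAT, Htr7 and Nos2 (adjusted p 0.0509 to 0.35). Without the filter Maoa, Maob, Pts, Agmo and Qprt in gWAT, Aldh2 in BAT and Tph1 and Nos2 in muscle did not pass (0.058 to 0.128). In 1 fit over all groups Pts in gWAT (0.495), Slc22a2 in BAT (0.106) and Tph1 and Htr7 in muscle (0.214 each) did not pass, while Spr in muscle did (0.0301). With slide as a block Aldh2 (0.125), Slc22a2 (0.529) and Qprt (0.0505) lost their BAT calls, and with the fixed replicate block these and Slc22a3 and Ccbl1 did (0.0507 to 0.347). The fixed replicate block rests on the few BAT arrays that share a number between the strains, as given below. Quantile normalization ended the call of Aldh2 in BAT (0.0578). Normexp brought tissue differences nearer to 0, as for Maoa in BAT minus gWAT (-1.24 in NZO, -0.66 in B6). The causes were not tested.

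The labels do not say whether a title number marks 1 animal. Over 20 same-numbered pairs of tissues within a strain the deviations correlated at -0.246 to 0.401, 6 above 0.1, and 7 correlated best with their own number. This cannot settle the pairing, since deviations in different tissues of 1 animal need not correlate. As a random replicate block the numbers had a correlation of 0.044. As a fixed replicate block, possible in BAT alone, they left 804 calls of 4574. This block took the number without the strain, so it joined NZO and B6 arrays that share a number (009 and 011). Such arrays are not of 1 animal, and the strain difference then rested on them alone. The block thus says nothing about animals, and its calls and losses rest on few arrays. Tph1 and Tph2 were not well above background on any BAT array and Ddc probe A on 1, so strain differences there were not detectable at this signal.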
